A study of Mus musculus with 20 samples.

Results

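Gene expression in left ventricular tissue was compared between 5 mice fed a high-fat diet with low protein (HF + LP) and 5 mice fed a high-fat diet with normal protein (HF). The comparison takes 10 of the 20 libraries of the study, all those whose labels carry these diet names. Both diets were formulated with the same lard content and given for the same time, intake was not analysed here, and they differ in casein, which made up 20% of the HF diet and 5% of the HF + LP diet, with carbohydrate in place of the missing protein. The other 10 libraries come from mice on diets with less fat, which also held lard. Of these, 5 mice were on normal protein (NP, 20% casein) and 5 on low protein (LP, 5% casein). These libraries entered the model for the spread between mice. They serve here as reference levels and for the protein effect at the lower fat content. All were male. The methods of the study place the start of the diets at 12 months of age and the end at 16 months, whereas the sample labels give 18 months for every mouse, and the strain is not given in the sources used here. Mice carry the animal numbers 1 to 5 in both groups, and each number in a group is a separate animal.

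The heart burns mainly fatty acids, and the nuclear receptor PPARα keeps the genes for their uptake and oxidation switched on. Cardiomyocytes make up most of the tissue mass, while fibroblasts secrete the collagens and the matricellular proteins around them, and resident and monocyte-derived macrophages clear debris and release chemokines. Overload brings back fetal genes such as those of β-myosin heavy chain and skeletal α-actin. Shortage of amino acids is known to act through the kinase GCN2 and the factor ATF4. Interferon-induced genes, with the genes that the study displayed in its heat map, are left out of the description here except in counts over all genes. Whether the differences described below are separate from those of the interferon-induced genes was not tested.

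Libraries were made with QuantSeq, a method that starts at the poly(A) tail and sequences only the 3′ end, so that a transcript's count depends little on its length. Total counts lay between 12559607 and 20111272 in HF and between 14937961 and 18762093 in HF + LP. The HF + LP mice weighed 48.6 ± 5.93 g and the HF mice 58.9 ± 1.76 g (SD, n = 5, two-sided exact permutation test, p = 0.0159). The markers of cardiomyocytes were present throughout, for example Pln and Actn2 with a mean normalized count of 68155 and 8142 in HF. Markers of the atria, which should be absent from ventricle, were not: the mean log2 level of 13 atrial genes, relative to the 20 mice, was 2.89 in HF 1, 2.15 in HF 3, 1.88 in HF + LP 3, and 0.33 in HF + LP 4, and between −2.26 and −1.67 in the other 6 mice. The main counts of the gene groups described at length are therefore also given without these 4. Adipocyte markers were highest in HF 3 (1.54) and HF + LP 3 (0.41).

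No single gene passed the threshold of the study in edgeR, a Benjamini-Hochberg adjusted p under 0.01 with a mean normalized count over 50, and 16 did in DESeq2, the tool of the study. Only 4 of the 16 lay outside the interferon-induced and heat-map lists. Of 13991 genes tested, 0 were called by edgeR's quasi-likelihood test (0%), 677 had an unadjusted p under 0.05 (4.84%), and the smallest adjusted p was 0.0841. At that unadjusted threshold 337 genes were higher (2.41%) and 340 lower (2.43%) in HF + LP. The even split depended on scaling, since RLE size factors gave 266 higher against 391 lower, and DESeq2 gave 263 against 403. Without the 4 libraries with atrial transcripts 246 were higher and 317 lower. A share of 4.84% is near the 5% that the threshold itself admits, so the counts below are read against it, and words such as higher and lower refer to an unadjusted p under 0.05 unless a value is given with its adjusted p.

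The median size of the log2 fold change was 0.10 over the 10159 genes with a mean normalized count over 50, and the median half-width of its 95% interval was 0.33. The largest differences were mostly decreases, since 57 of these genes were lower by over 1 on the log2 scale and 6 were higher. Outside the interferon-induced and heat-map lists, which hold 143 tested genes, 33 of the large differences were lower and 6 higher, but only 7 and 2 of them had an unadjusted p under 0.05. Many of the others were adipocyte and atrial genes such as Pck1, Adipoq, Myl7, and Sln, with log2 fold changes of −2.54, −2.20, −1.54, and −1.22 and unadjusted p of 0.140, 0.149, 0.372, and 0.487 in edgeR, and all but Pck1 were named after their values were seen. For Pck1 and Adipoq the sign turned without HF 3, to 2.08 and 1.19, and for Sln without HF 1, to 0.05. Without the 143 genes, 336 genes were higher and 245 lower.

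Of 99 tested genes of the extracellular matrix, in lists of collagen chains, matricellular and matrix-building genes, and matrix proteases with their inhibitors, 26 were lower in HF + LP, against 2.43% of all genes, and 1 was higher. The median log2 fold change of the 99 was −0.27, against 0.02 over all genes tested. The mean level of these genes lay between 0.02 and 0.30 in HF and between −0.29 and 0.11 in HF + LP, on a log2 scale relative to the 20 mice, so that HF + LP 3 overlapped with HF mice 2 and 4. Without the 4 libraries with atrial transcripts 18 of the 99 were lower, 10 of them matricellular genes, 5 collagens, and 3 proteases or inhibitors.

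Cilp, which encodes a matrix protein of cartilage and of cardiac fibroblasts that binds TGF-β (ENSMUSG00000042254, chromosome 9 of GRCm38, 65265180 to 65280605), had the smallest p of all genes outside the lists left out. Its normalized count was 425, 281, 264, 265, and 332 in HF mice 1 to 5 and 104, 174, 138, 133, and 89.7 in HF + LP mice 1 to 5. Every HF + LP mouse lay below every HF mouse, and the log2 fold change was −1.29 (standard error, SE, of 0.22, Benjamini-Hochberg adjusted p = 0.0841 in edgeR). DESeq2 called Cilp, at a Benjamini-Hochberg adjusted p of 6.84e-05. The level in HF + LP, 128 ± 32.7, stands beside 223 ± 75.6 in NP and 202 ± 41.3 in LP (SD, n = 5).

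Fstl1, a secreted glycoprotein of fibroblasts that follistatin gave its name (chromosome 16, 37776873 to 37836514), was counted at 1557, 1476, 1240, 1173, and 1497 in HF and 884, 851, 1155, 846, and 941 in HF + LP. Postn, the matricellular protein periostin of activated fibroblasts (chromosome 3, 54361109 to 54391037), stood at 420.0, 268, 321, 299, and 414 in HF and 181, 247, 243, 146, and 109 in HF + LP. For neither gene did the groups overlap, and the log2 fold changes were −0.57 (SE 0.12) and −0.89 (SE 0.21), with Benjamini-Hochberg adjusted p of 0.134 and 0.217 in edgeR. DESeq2 called Fstl1 (Benjamini-Hochberg adjusted p = 0.00168) and not Postn. Groups without overlap were found for 165 genes in all (1.18%), with 76 higher (0.543%) and 89 lower (0.636%). Among 45 matricellular and matrix-building genes, 14 were lower, 4 without overlap, and 0 higher, with a median of −0.29. The microfibril proteins Mfap5 and Mfap4 had log2 fold changes of −0.68 and −1.13, and for both HF + LP overlapped with HF. Mfap5 was at −0.41 without the 4 libraries with atrial transcripts.

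Collagens shared the direction. Of 26 tested chains 7 were lower and 0 higher, with 3 that did not overlap and a median of −0.23. Col3a1, the main chain of type III collagen (chromosome 1, 45311538 to 45349706), was counted at 1532, 1382, 2114, 1978, and 2489 in HF and 912, 1308, 1579, 1448, and 1229 in HF + LP. HF 1 and HF 2 lay within the range of HF + LP, and the log2 fold change was −0.55 (SE 0.19, Benjamini-Hochberg adjusted p = 0.577 in edgeR). The fibril-associated chains Col16a1 and Col14a1 differed by −0.45 and −0.74, and Col8a2 by −1.18 at a mean normalized count of 13.7 in HF and 5.96 in HF + LP.

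Of 28 matrix proteases and inhibitors 5 were lower and 1 higher. Adamts2, the protease that trims the amino end of procollagens, stood at 328, 312, 269, 290.0, and 280.0 in HF and 174, 236, 181, 239, and 243 in HF + LP, without overlap (log2 fold change −0.46). Serpinf1, which encodes the secreted factor PEDF, differed by −0.42, also without overlap, and the gelatinase Mmp2 by −0.31. The other gelatinase, Mmp9, a protease of neutrophils and macrophages, went the opposite way, with 20.3, 13.2, 50.6, 29.9, and 37.6 in HF and 32.3, 27.8, 54.2, 149, and 167 in HF + LP. Its log2 fold change of 1.47 (SE 0.45, Benjamini-Hochberg adjusted p = 0.459 in edgeR) rested on HF + LP mice 4 and 5, while mice 1 and 2 lay inside the HF range and mouse 3 just above it.

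Of 18 fibroblast markers 5 were lower and 0 higher, with a median of −0.25, and 17 had a negative log2 fold change. Of the 18, 8 also stand in the matrix lists, 4 of the 5 lower ones among them, and 3 of the 18 were lower without the 4 libraries with atrial transcripts. Pdgfra, a receptor that marks resident fibroblasts, had a log2 fold change of −0.14 (SE 0.21), which ranged from −0.26 to −0.02 over the alternatives and was −0.03 without the 4 libraries with atrial transcripts. It was named after its values were seen. In bulk tissue, fewer cells of a type and less RNA per cell cannot be told apart.

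**Figure D1:**
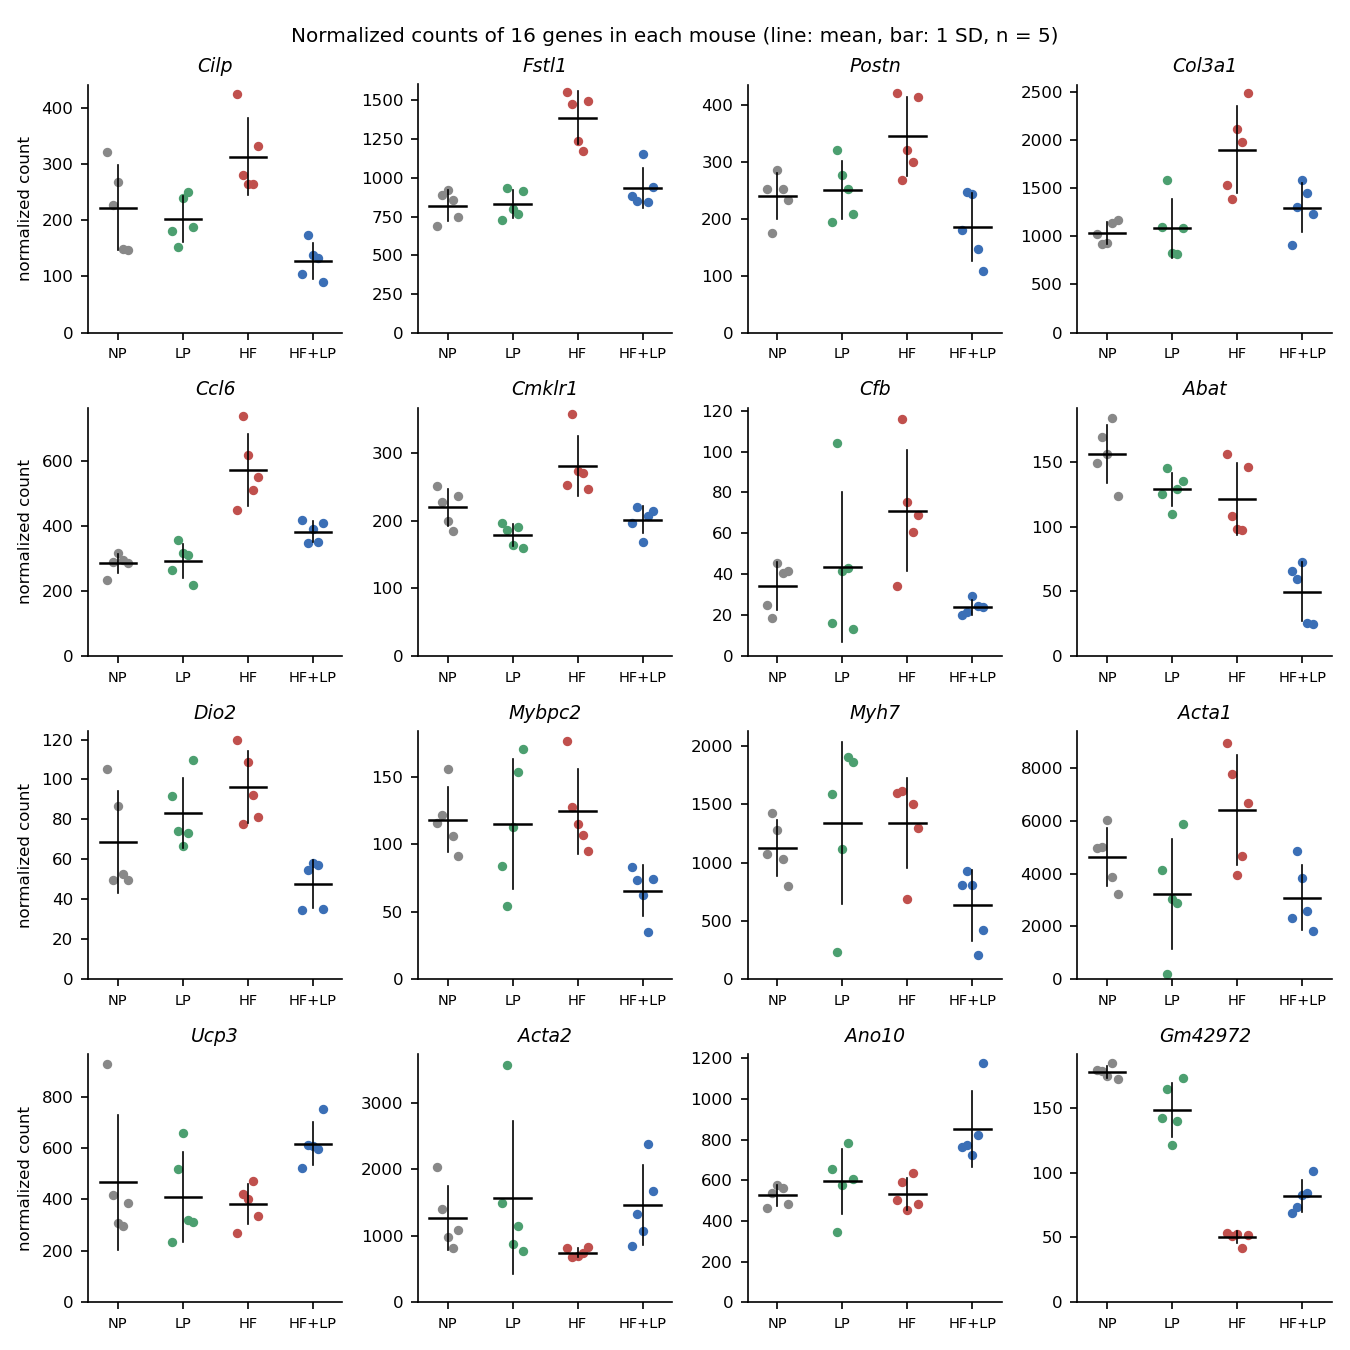
Normalized counts (y axis) of 16 genes in each mouse of the 4 diet groups (x axis), with the mean as a line and 1 SD as a bar. HF + LP mice (blue) lie below every HF mouse (red) for Cilp, Fstl1, Postn, Ccl6, Cmklr1, Cfb, Abat, Dio2, and Mybpc2 and above every HF mouse for Ucp3, Acta2, Ano10, and Gm42972, while Col3a1, Myh7, and Acta1 overlap.

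Of 36 tested markers of resident and monocyte-derived macrophages, 16 were lower in HF + LP and 0 higher, with a median of −0.40, and 34 had a negative log2 fold change. The mean level of the list ran from 0.13 to 0.51 in HF and from −0.14 to 0.10 in HF + LP, and was between −0.33 and −0.16 in NP. Only 1 of the 36 is among the interferon-induced or heat-map genes. The count was 10 without HF 5 and was 14 without the 4 libraries with atrial transcripts, with 1 higher and a median of −0.54.

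Ccl6, a chemokine of macrophages that attracts monocytes (chromosome 11, 83587882 to 83593087), was counted at 448, 737, 619, 509, and 550.0 in HF and 417, 346, 390.0, 351, and 408 in HF + LP. The groups did not overlap, and the log2 fold change was −0.58 (SE 0.14, Benjamini-Hochberg adjusted p = 0.217 in edgeR). Outside this list, Cmklr1, the chemerin receptor of macrophages and natural killer cells, had 253, 357, 274, 271, and 247 in HF and 197, 220.0, 169, 207, and 214 in HF + LP, also without overlap, at a log2 fold change of −0.47 (SE 0.12). Within it, the activating Fcγ receptor Fcgr3, the tetraspanner Ms4a7, and the lysosomal protease Ctss differed by −0.58, −0.55, and −0.48 (Ctss by −0.77 without the 4 libraries). The classical marker Cd68 had −0.23 (SE 0.19) and Adgre1, which encodes F4/80, −0.33 (SE 0.19), and neither reached an unadjusted p under 0.05, at −0.38 and −0.54 without the 4 libraries (both named after their values were seen).

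Of 22 genes of complement and Fc receptors, 8 were lower and 1 was higher, with a median of −0.36, and 5 lay lower without overlap. The 22 share 5 genes with the macrophage list, 3 of the 8 among them, and 7 were lower without the 4 libraries with atrial transcripts. Cfb, the protease factor B of the alternative pathway, stood at 34.3, 116, 75.1, 60.7, and 69 in HF and 19.8, 21.4, 29.5, 24.6, and 23.7 in HF + LP. The HF + LP mice were close together, below all HF mice, and the log2 fold change was −1.57 (SE 0.43, Benjamini-Hochberg adjusted p = 0.343 in edgeR). The inhibitory receptor Fcgr2b and the terminal component C6 also did not overlap, at −0.69 and −1.85, the latter from mean normalized counts of 18.4 in HF and 4.91 in HF + LP. The 7 MHC class II genes and the 16 B and T cell markers each had 0 genes past an unadjusted p of 0.05, with medians of 0.13 and 0.04. Neither median kept its sign with each mouse left out, at −0.03 to 0.24 and −0.27 to 0.21, and they were 0.03 and −0.29 without the 4 libraries with atrial transcripts.

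Among the other genes that did not overlap, Abat encodes the mitochondrial enzyme that breaks down GABA (chromosome 16, 8513429 to 8621568). It was counted at 156, 108, 97.8, 97.7, and 146 in HF and 65.6, 59.8, 72.3, 25.8, and 24.7 in HF + LP, a log2 fold change of −1.28 (SE 0.24, Benjamini-Hochberg adjusted p = 0.134 in edgeR), and DESeq2 called it at a Benjamini-Hochberg adjusted p of 0.000468. HF + LP 4 and 5 had the lowest values, and the group mean of 49.6 ± 22.7 was below those of HF (121 ± 27.9), LP (129 ± 12.7), and NP (156 ± 22.3). The other 33 tested genes of branched-chain and other amino acid breakdown had 0 past the same threshold, and the median of the list was 0.01.

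Dio2, the deiodinase that turns thyroxine into active thyroid hormone inside the cell (chromosome 12, 90724552 to 90738438), had 120.0, 77.8, 109, 92.4, and 81.3 in HF and 34.4, 54.5, 58, 57.1, and 35.1 in HF + LP. The groups did not overlap, and the log2 fold change was −1.0 (SE 0.23, Benjamini-Hochberg adjusted p = 0.217 in edgeR). The actin-binding protein Cap1, the leukotriene synthase Ltc4s, and the sodium pump regulator Fxyd5 had lower levels without overlap as well, with log2 fold changes of −0.50, −0.67, and −0.44.

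Genes of the hypertrophic response were lower in part. Of 17 tested, 6 were lower and 0 higher, with a median of −0.49, and 1 did not overlap. Averaged over the list, the level was 0.61 in HF 1 and 0.09 to 0.23 in the other HF mice, and in HF + LP it was 0.26 in mouse 3 and −0.66 to −0.13 in the others. The list shares 1 gene with the atrial markers, and the part of that gene in these levels was not tested. The count depended on single libraries, with 3 without HF 2, 4 without HF 1 and again without HF + LP 4 or 5, and 1 without the 4 libraries with atrial transcripts, where 1 was also higher and the median was −0.43. The 1 lower gene there was Gdf15, and Mybpc2, Myh7, Acta1, and Ankrd1, described next, did not pass the threshold. The median was also smaller in size without single mice, at −0.29 without HF 1, −0.27 without HF 3, −0.30 without HF 5, and −0.30 without HF + LP 5.

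Mybpc2, the fast skeletal myosin-binding protein C (chromosome 7, 44501699 to 44524656), had 177, 128, 115, 107, and 95.1 in HF and 83.3, 73.7, 62.8, 34.7, and 74.2 in HF + LP, without overlap. Its log2 fold change was −0.91 (SE 0.27, Benjamini-Hochberg adjusted p = 0.459 in edgeR) and −0.50 without the 4 libraries. Myh7, the slow β-myosin heavy chain (chromosome 14, 54970684 to 54994626), was counted at 1598, 1617, 690.0, 1502, and 1295 in HF and 806, 924, 810.0, 204, and 424 in HF + LP, so that HF 3 lay inside the range of HF + LP (log2 fold change −1.08, SE 0.42). Acta1, skeletal α-actin, stood at 8959, 7780, 3959, 4653, and 6670 in HF and 2301, 4844, 3838, 2583, and 1841 in HF + LP, a log2 fold change of −1.06 (SE 0.48) with overlap. The stretch-responsive titin partner Ankrd1, among the most abundant messages of the tissue, had 89672, 51358, 49296, 65494, and 64730 in HF and 46645, 54406, 49310, 39327, and 33135 in HF + LP, a difference of −0.52 (SE 0.19) with overlap.

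Of the natriuretic peptides, neither passed the threshold, and Nppa was high where atrial markers were. Nppa, atrial natriuretic peptide, had a normalized count of 140129, 2083, 42888, 2942, and 1766 in HF and 914, 2339, 57473, 15845, and 755 in HF + LP. The 4 highest values belong to the 4 mice highest in atrial markers. The hypertrophy list, which holds Nppa, shares 1 gene with the atrial list. If that gene is Nppa, this match is partly built in. The log2 fold change of Nppa, −1.30 (SE 1.36), turned to 0.32 without HF 1. Nppb, brain natriuretic peptide, which ventricle also makes under load, averaged 373 ± 121 in HF against 240.3 ± 136 in HF + LP (SD over 5 mice each), a log2 fold change of −0.63 (SE 0.42) and of −0.83 without the 4 libraries with atrial transcripts. Both were named after their values were seen.

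Promoters of 4 of the 6 lower hypertrophy genes, all contractile or sarcomere-associated, are shown because each holds a short motif that muscle genes are known for, and they were chosen for holding it. None of these 4 genes passed the threshold without the 4 libraries with atrial transcripts. Each sequence runs from 250 bases before to 50 bases after a transcription start in RefSeq on GRCm38.p6, here always from the minus strand, with the letters CATTCC or its reverse complement GGAATG in capitals, the core of the MCAT element that TEAD factors bind. The Acta1 window also holds a CArG box, the binding motif of serum response factor, in capitals before it. Acta1 lies at chr8:123894726-123895025, Ankrd1 at chr19:36119795-36120094, Mybpc2 at chr7:44524620-44524919, and Myh7 at chr14:54994577-54994876.
Acta1: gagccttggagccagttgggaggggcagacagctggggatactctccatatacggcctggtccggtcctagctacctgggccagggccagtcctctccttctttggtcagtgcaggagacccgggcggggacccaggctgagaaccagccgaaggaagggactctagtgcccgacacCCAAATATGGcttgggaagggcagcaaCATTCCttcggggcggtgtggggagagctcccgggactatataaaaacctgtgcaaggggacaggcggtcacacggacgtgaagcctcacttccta
Ankrd1: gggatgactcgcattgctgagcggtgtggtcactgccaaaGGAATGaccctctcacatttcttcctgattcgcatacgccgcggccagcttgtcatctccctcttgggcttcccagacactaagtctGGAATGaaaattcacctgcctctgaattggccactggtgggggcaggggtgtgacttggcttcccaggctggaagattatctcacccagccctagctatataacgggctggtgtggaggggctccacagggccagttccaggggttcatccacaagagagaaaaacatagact
Mybpc2: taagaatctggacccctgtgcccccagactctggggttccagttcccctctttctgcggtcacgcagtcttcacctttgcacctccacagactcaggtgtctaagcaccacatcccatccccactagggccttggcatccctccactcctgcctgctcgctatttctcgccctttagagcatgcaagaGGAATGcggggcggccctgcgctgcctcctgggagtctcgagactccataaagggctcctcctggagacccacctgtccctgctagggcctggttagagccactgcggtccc
Myh7: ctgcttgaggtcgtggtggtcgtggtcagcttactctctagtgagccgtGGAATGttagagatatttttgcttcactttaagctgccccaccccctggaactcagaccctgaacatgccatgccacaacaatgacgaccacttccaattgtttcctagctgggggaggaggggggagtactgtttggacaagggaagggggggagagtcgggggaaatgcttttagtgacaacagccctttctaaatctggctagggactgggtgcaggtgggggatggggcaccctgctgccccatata

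Searched on both strands, CATTCC was present in 14.7% of 32851 promoter windows of this length and in a window of 16.6% of 27025 genes. Among the 17 hypertrophy genes 13 had a window, and 7 of these held the motif, Acta1, Ankrd1, Mybpc2, Myh7, Gdf15, Nppb, and Mef2c. Of the 6 that were lower, 5 held it, all but Uchl1, a ubiquitin hydrolase. The CArG box was found in 1.63% of windows and in 2 of the 13 genes, Acta1 and Fhl1. These letters are a description of the sequence, and no binding was measured.

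**Figure D2:**
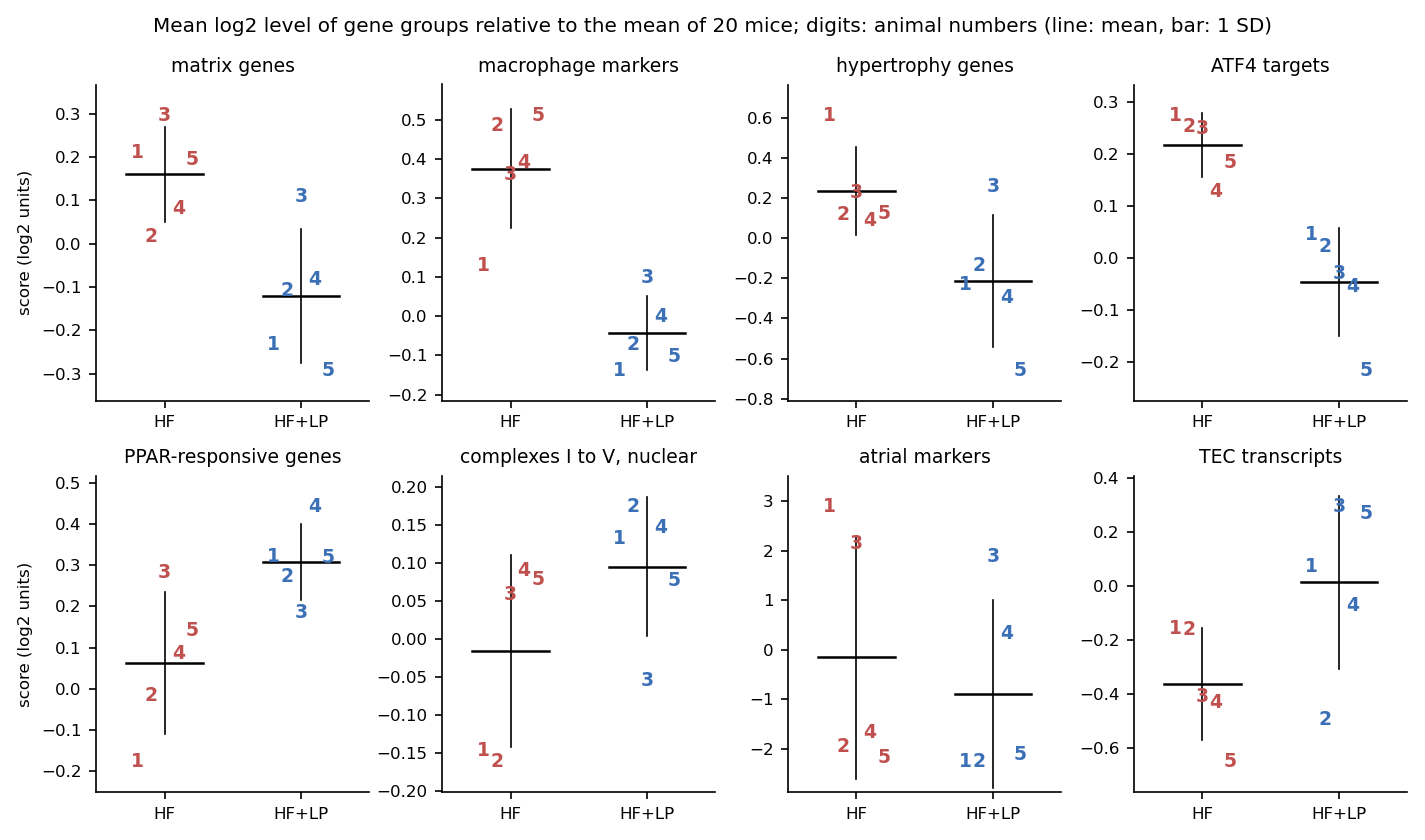
Mean log2 level (y axis, relative to the mean of all 20 mice) of 8 gene groups in HF and HF + LP mice, with digits giving the animal number, lines the mean, and bars 1 SD. Macrophage markers and ATF4 targets separate the groups completely, HF + LP 3 reaches into the HF range for matrix and hypertrophy genes, and atrial markers are high in HF 1, HF 3, and HF + LP 3.

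Genes of fatty acid use were higher in part. Of 25 PPAR-responsive genes, 5 were higher in HF + LP and 0 lower, with a median of 0.21. The list's mean level lay between −0.18 and 0.28 in HF and between 0.18 and 0.44 in HF + LP. The count was 3 without HF 1 or without HF + LP 4, and 2 without HF + LP 5 or without the 4 libraries with atrial transcripts, where the median was 0.24.

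Ucp3, the uncoupling protein of muscle (chromosome 7, 100472990 to 100486432), had 271, 422, 402, 471, and 337 in HF and 521, 610.0, 606, 596, and 753 in HF + LP, with no overlap, at a log2 fold change of 0.70 (SE 0.29, Benjamini-Hochberg adjusted p = 0.852 in edgeR). Angptl4, a secreted inhibitor of lipoprotein lipase, ranged from 80.1 to 171 in HF and from 88.5 to 456 in HF + LP, where mouse 1 lay inside the HF range (log2 fold change 1.19, SE 0.57). The auxiliary oxidation enzymes Ech1 and Decr1 differed by 0.45 and 0.30, and they are also the 2 genes higher among 29 of fatty acid oxidation, of which 8 stand in both lists. Without the 4 libraries with atrial transcripts 0 of the 29 were higher.

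In neighbouring pathways single genes stood out. Slc16a7, a carrier of monocarboxylates such as ketone bodies and pyruvate, was higher by 0.78. Pfkfb1, which makes and breaks down a fructose bisphosphate that activates glycolysis, was higher by 0.70, and the pyruvate dehydrogenase phosphatase Pdp2 by 0.45. HF + LP 3 lay within the HF range for Pfkfb1, with 219, 220.0, 101, 214, and 211 in HF + LP and 78.8, 161, 130.0, 121, and 101 in HF. Tbc1d4, which controls the glucose carrier GLUT4 downstream of insulin, was higher by 0.34, and 0 of 29 insulin and IGF genes were higher without the 4 libraries with atrial transcripts. The citrate cycle had 0 of 25 genes past the threshold, and cholesterol synthesis 1 of 21, the enzyme Hsd17b7, counted at no more than 202 in HF and no less than 208 in HF + LP (log2 fold change 0.56, SE 0.15).

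Most respiratory chain genes had a small positive log2 fold change, and 2 of 87 were higher, against 2.41% of all genes, of which 53.7% were positive. Of 13 cardiomyocyte markers 11 were positive, with a median of 0.17 and 0 past the threshold. Of 37 nuclear genes of complex I, 36 had a positive log2 fold change, with a median of 0.11, and 0 had an unadjusted p under 0.05. For complexes II to V 45 of 50 were positive, with a median of 0.12, and 2 were higher, which were 0 without the 4 libraries with atrial transcripts. Averaged over all 87, the level ranged from −0.16 to 0.09 in HF and from −0.05 to 0.17 in HF + LP, an overlap of HF 3, 4, and 5 with HF + LP 3 and 5. The part of the cardiomyocyte share of RNA in these values was not tested. With RLE size factors the median of complex I was 0.09.

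Of the genes encoded by mitochondrial DNA, the 8 protein genes tested here took 42.7%, 43.1%, 36.8%, 36.5%, and 42.7% of the counts in HF + LP mice 1 to 5 and 35.2%, 34.6%, 38.2%, 36.6%, and 37.0% in HF mice 1 to 5. The means were 40.4 ± 3.4% and 36.3 ± 1.42% (SD, n = 5), and their difference of 4.05 percentage points gave p = 0.0794 in an exact permutation test (two-sided), with 3 of 5 HF + LP mice above every HF mouse. Among libraries that share the number in the library name, whose meaning is not given in the sources used here, the exact permutation p was 0.225. The exact permutation p was 0.0238 when all mitochondrially encoded genes were counted, ribosomal and transfer RNA included, with a difference of 4.56. By gene, mt-Nd1 and mt-Nd5, subunits of complex I, were higher by 0.26 and 0.33, and mt-Nd4 differed by 0.37 (SE 0.18, and 0.62 without the 4 libraries with atrial transcripts). Another subunit gene of complex I, mt-Nd3, lay the other way without passing the threshold and was named after its values were seen, with 276, 254, 3875, 319, and 4501 in HF and 1851, 370.0, 779, 344, and 353 in HF + LP. HF 3 and HF 5 were far above the rest, and the log2 fold change was −1.32 (SE 0.82), −0.86 without HF 3, −0.68 without HF 5, and −2.0 without HF + LP 1.

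Of 29 genes of mitochondrial dynamics and mitophagy 1 was higher, Twnk, the helicase that replicates mitochondrial DNA (log2 fold change 0.34, SE 0.12). Without the 4 libraries with atrial transcripts 0 of the 29 were higher, and Twnk was at 0.27. Prkaa1, the catalytic α1 subunit of AMPK, was counted at 139, 101, 139, 128, and 103 in HF and 156, 139, 160.0, 147, and 136 in HF + LP, a log2 fold change of 0.27 (95% interval −0.00 to 0.55). Ulk1, the kinase that starts autophagy, had 981 ± 172 in HF and 1211 ± 240 in HF + LP, a log2 fold change of 0.30 (95% interval −0.18 to 0.79). The 39 autophagy genes, 40 lysosomal genes, 36 proteasome genes, and 19 genes of muscle atrophy each had 0 past an unadjusted p of 0.05, with medians between −0.06 and 0.04.

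Genes that respond to amino acid shortage were not higher on the diet with less protein. Of 32 targets of ATF4 and the integrated stress response, 4 were lower and 0 higher, 30 had a negative log2 fold change, and the median was −0.16. The median ran from −0.25 to −0.16 with each mouse left out, and without the 4 libraries with atrial transcripts 2 were lower, with a median of −0.22. The mean level of the list ran from 0.13 to 0.28 in HF and from −0.22 to 0.05 in HF + LP, and from −0.20 to −0.01 in NP. The stress-induced sestrin Sesn2, which restrains mTORC1, stood at 35.6, 39.5, 23.6, 19.4, and 22.2 in HF and 19.8, 15, 17.1, 7.84, and 14.4 in HF + LP (log2 fold change −0.89, SE 0.30). The chromatin-associated stress protein Nupr1 had at least 137 in HF and at most 133 in HF + LP, without overlap, at −0.42. Gdf15, the circulating stress hormone that suppresses appetite, and Ddit3, which encodes CHOP, differed by −0.93 and −0.38, and by −0.62 and −0.19 without HF 2. The 2 lower genes without the 4 libraries with atrial transcripts were Gdf15 and Mthfd2, and Sesn2, Nupr1, and Ddit3 did not pass there.

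The folate enzyme Mthfd2, an ATF4 target, had a normalized count of 141, 130.0, 106, 126, and 125 in HF and 58.3, 96.2, 117, 124, and 92.8 in HF + LP, a log2 fold change of −0.36 (95% interval −0.75 to 0.03), which was −0.22 without HF + LP 1 and −0.62 without the 4 libraries with atrial transcripts. The 25 genes of one-carbon and serine metabolism and the 23 cytosolic aminoacyl-tRNA synthetases had 0 past the threshold, with medians of −0.04 and −0.01. Without the 4 libraries with atrial transcripts the one-carbon list had 1 lower gene, Mthfd2, and the synthetases had 0. The transporters of amino acids had 1 of 24, and cytosolic ribosomal proteins 3 of 85, all higher, with a median of 0.09. Both lists had 0 past the threshold without the 4 libraries with atrial transcripts. Among immediate early genes 2 of 22 were lower, Egr1, a zinc-finger factor, by −0.76 (SE 0.19) and Junb, a subunit of AP-1, by −0.51 (SE 0.21).

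**Figure D3:**
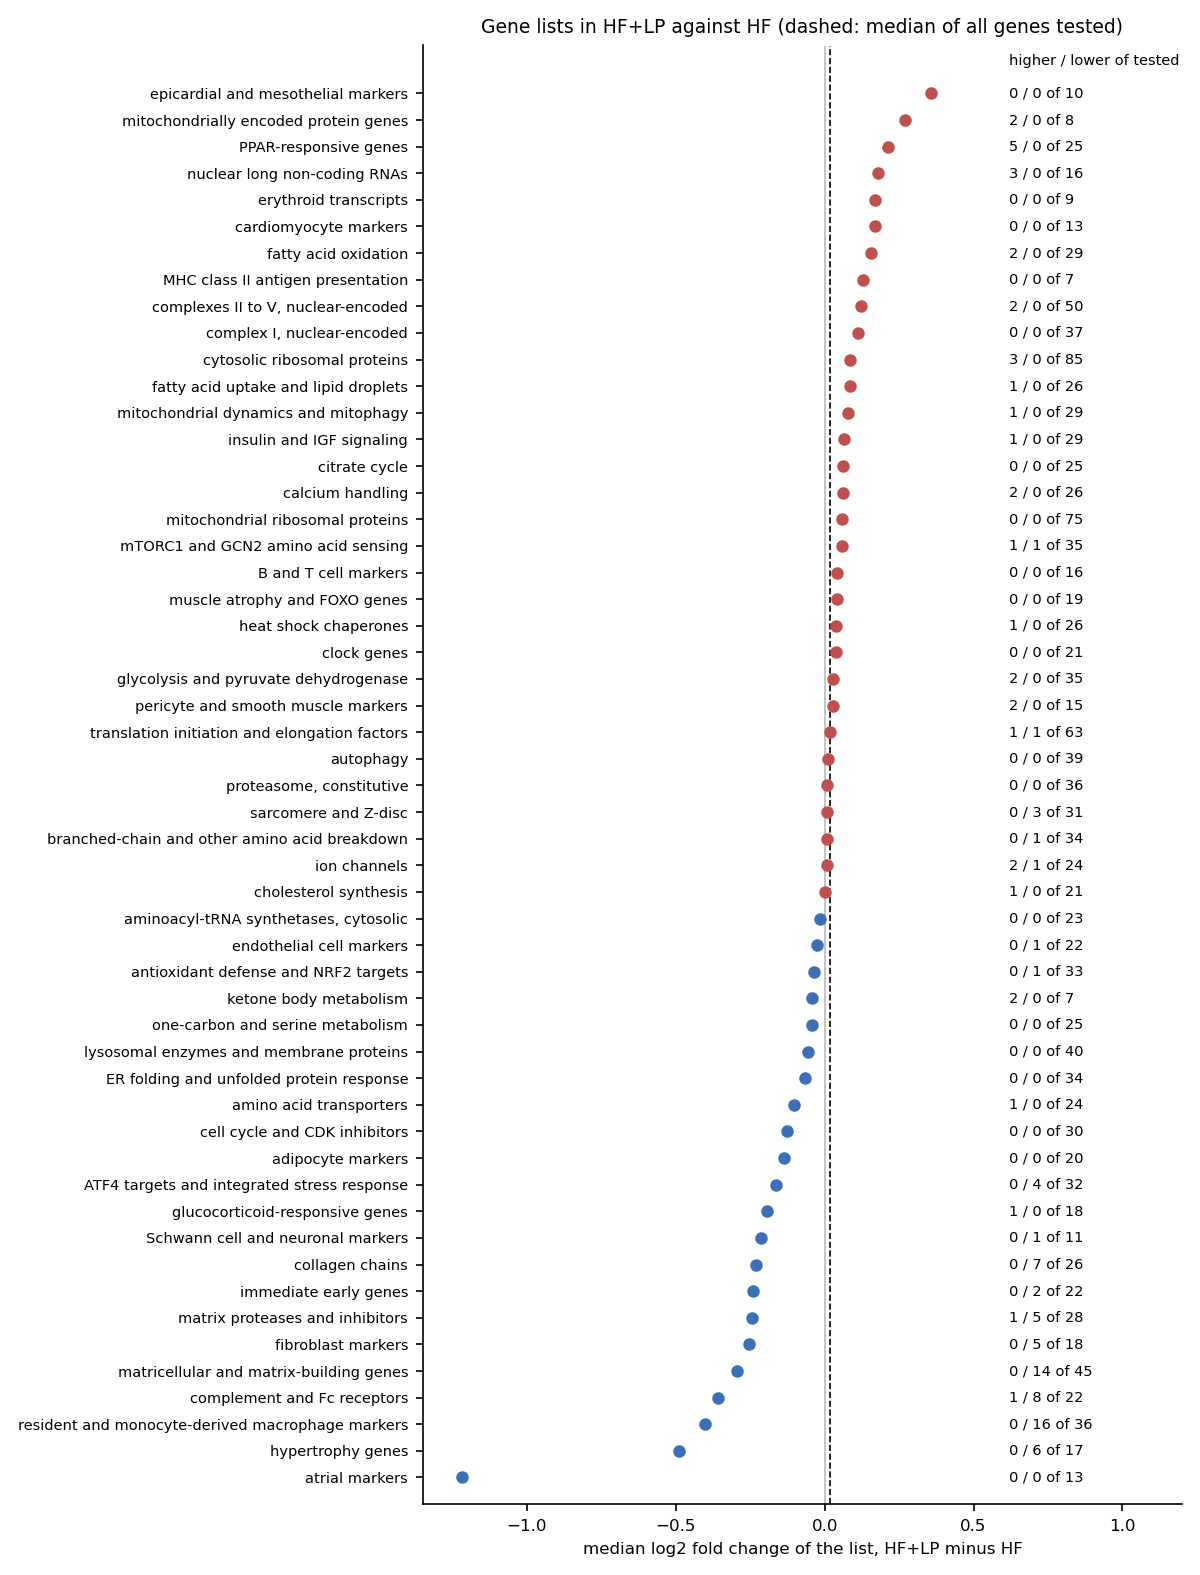
Median log2 fold change of the gene lists (x axis, HF + LP minus HF), ordered by value, with the number of members higher and lower at an unadjusted p under 0.05 printed at the right and the median of all genes as a dashed line. Atrial markers (−1.22, with 0 of 13 past the threshold, and −2.76 to −0.13 with single mice left out), hypertrophy genes (−0.49, −0.52 to −0.27), and macrophage markers (−0.40, −0.47 to −0.34) lie lowest, while epicardial markers (0.36, with 0 of 10 past the threshold, and −0.17 to 0.57 with single mice left out), mitochondrially encoded genes (0.27), and PPAR-responsive genes (0.21) lie highest.

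Contractile and vascular genes differed in a few places. Among 26 genes of calcium handling 2 were higher, the release channel Itpr1 by 0.36 and the L-type channel Cacna1c by 0.31, while of 31 sarcomere genes the 3 lower ones were Ankrd1, Myh7, and Acta1. None of these 5 passed the threshold without the 4 libraries with atrial transcripts, where calcium handling had 0 genes past it and the sarcomere list had 0 lower and 1 higher (Myh6, the α-myosin heavy chain, named after its values were seen). Acta2, smooth muscle α-actin (chromosome 19, 34241090 to 34255590), was counted at 815, 676, 692, 740.0, and 825 in HF and 849, 1322, 1070, 2378, and 1677 in HF + LP. The groups did not overlap, with HF + LP 4 the highest, and the log2 fold change was 0.96 (SE 0.35, Benjamini-Hochberg adjusted p = 0.684 in edgeR). The channel subunit Abcc9 of pericytes was higher by 0.43 (0.23 without the 4 libraries with atrial transcripts), and the other 13 of 15 pericyte and smooth muscle markers did not pass the threshold. The 22 endothelial markers had 1 lower and a median of −0.03. Without those 4 libraries 0 genes of either marker list passed the threshold.

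GENCODE M21 keeps a type, TEC, for transcripts that still await an experiment on whether they code, and 65 of 418 tested TEC transcripts (15.6%) were higher in HF + LP and 0 lower. Their median log2 fold change was 0.44, and 89.5% were positive. Among TEC transcripts 10 did not overlap, of 76 such genes that were higher. Of 64 sense intronic transcripts 6 were higher and 0 lower, with a median of 0.42. The 1429 genes annotated with a type other than protein-coding had 130 higher and 5 lower, and 29 genes without an annotation 3 and 1, whereas the 12533 protein-coding genes had 204 higher and 334 lower, with a median of 0.01.

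The mean level of TEC transcripts lay between −0.65 and −0.16 in HF and between −0.50 and 0.29 in HF + LP, where mouse 2 was the lowest and inside the HF range. In the mice on the diets with less fat it ran from −0.54 to 0.56 in NP and from −0.70 to 0.60 in LP. The number of higher TEC transcripts was 58 with RLE size factors and 53 with DESeq2, 43 without HF 4, 39 without HF + LP 3, 34 without the 4 libraries with atrial transcripts, and 39 among genes with at least 10 counts in every library.

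By position, 330 of the 418 lie inside a protein-coding gene on the same strand, and 57 of these were higher (17.3%), against 7 of 75 outside (9.33%). The 325 of them whose host gene was tested had a median host log2 fold change of 0.07, and 300 exceeded their host. In 5 of these pairs the host was higher and in 0 lower. They are scarce, with TEC transcripts together taking 0.0709% to 0.0849% of counts in HF and 0.0680% to 0.117% in HF + LP. How reads in introns were assigned is not given in the sources used here, and the part of unspliced host RNA in these counts was not tested.

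Gm42972, a TEC transcript inside Ank2 (ENSMUSG00000105445, chromosome 3, 127266673 to 127272289, minus strand), had the smallest p among higher genes. It was counted at 53.4, 51.4, 52.4, 42.2, and 52.2 in HF and 68.7, 73.7, 82.7, 84, and 101 in HF + LP, without overlap, and at a mean of 177 in NP and 148 in LP. The log2 fold change was 0.71 (SE 0.13, Benjamini-Hochberg adjusted p = 0.0841 in edgeR, 0.0099 in DESeq2, which called it), whereas Ank2, the ankyrin-B gene that hosts it, had 0.03. C130089K02Rik inside Maml3 differed by 1.15, 4833412K13Rik inside Farsb by 0.68, and the sense intronic BC002189 inside Trim55 by 0.57, with host values of 0.05, 0.04, and 0.12. The transcript A330023F24Rik and the nuclear RNA Neat1, scaffold of paraspeckles, were higher by 0.65 and 0.40. Of 16 nuclear long non-coding RNAs, a list that tracks RNA quality, 3 were higher and 0 lower, with a median of 0.18 (0.05 without the 4 libraries with atrial transcripts, and 0.11 to 0.38 with each mouse left out). Its mean level lay between −0.45 and −0.06 in HF and between −0.31 and 0.26 in HF + LP, and its part in the level of TEC transcripts was not tested.

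Of the protein-coding genes that were higher, Ano10 encodes a scramblase-like membrane protein (chromosome 9, 122175874 to 122294423). It had 505, 590.0, 453, 639, and 482 in HF and 764, 776, 725, 823, and 1179 in HF + LP, where mouse 5 was far above the rest. The log2 fold change was 0.68 (SE 0.17, Benjamini-Hochberg adjusted p = 0.251 in edgeR), and the HF level was close to the 527 ± 50.4 of NP. The neuron navigator Nav2, a microtubule-binding protein, was nearly constant in HF, with 421, 431, 424, 421, and 422, and had 491, 567, 524, 575, and 738 in HF + LP (log2 fold change 0.45). Ahnak, a giant scaffold protein, differed by 0.26, Cmss1 by 0.56, and Tmem245 by 0.28, all without overlap.

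**Figure D4:**
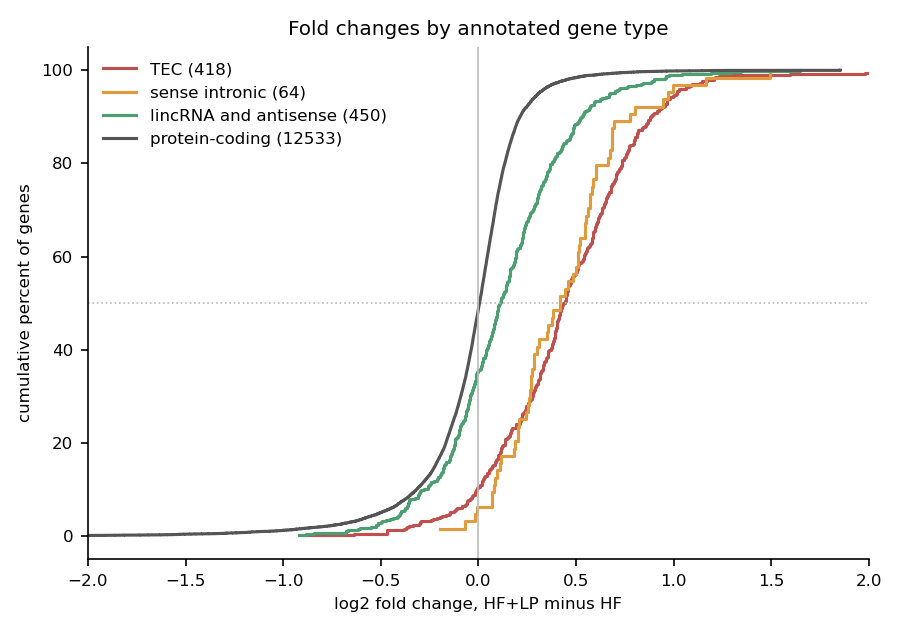
Cumulative percent of genes (y axis) by log2 fold change in HF + LP minus HF (x axis) for 4 annotated gene types, with the number of genes in parentheses. TEC and sense intronic transcripts are shifted to the right, with medians of 0.44 and 0.42, while protein-coding genes are centred at 0.01.

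The same change in casein at the lower fat content was available in LP and NP, 10 mice that share no sample with the comparison above. Several of these libraries held transcripts of other tissues. The adipocyte score ran from −0.42 to 4.16 in LP and from −1.06 to 0.94 in NP. The atrial score ran from −2.57 to 3.65 in LP, with medians of 1.21 in LP and 0.53 in NP. Of 16 B and T cell markers 14 were higher in LP, and of 20 adipocyte markers 13. Their part in the values below was not tested, except for the correlation without LP 13. In LP against NP 1012 genes had an unadjusted p under 0.05 (7.23%), 703 higher (5.02%) and 309 lower (2.21%) in LP. Of these, 44 were among the 677 of the high-fat comparison, 4.35% and 6.50% of the lists, and 19 of them had the same direction and 25 the opposite. Across 10159 genes the log2 fold changes of both comparisons had a Pearson r of −0.20, as a description over genes that are not independent, and −0.01 without LP 13, a library that stood apart from its group. For matrix, macrophage, hypertrophy, and PPAR-responsive genes the medians of LP minus NP were −0.01, 0.10, −0.03, and −0.10, against −0.27, −0.40, −0.49, and 0.21 within the high-fat diet.

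A difference between both protein effects, tested as the interaction of fat and protein, was called for 0 genes by edgeR (0%) and for 1 by DESeq2, with 1003 at an unadjusted p under 0.05 (7.17%) and a smallest adjusted p of 0.258. This p belonged to Gm42972, whose log2 fold change was 0.71 with high fat and −0.26 without (interaction 0.97, Benjamini-Hochberg adjusted p = 0.258 in edgeR). Armh4, a membrane protein, was 0.54 with high fat and −0.38 without, Fam234b −0.40 and 0.81, and the potassium channel Kcnk1 0.41 and −1.02. With high fat, Kcnk1 ranged from 0.14 (without HF + LP 5) to 0.56 over the alternatives. The last of the 5 named, Bmp10, a growth factor of the atria, rested on LP mice, at 3949 ± 5746 in LP (SD, n = 5) against a mean of 10.1 to 38.8 in the other groups. The LP libraries with transcripts of other tissues entered the interaction as well.

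**Figure D5:**
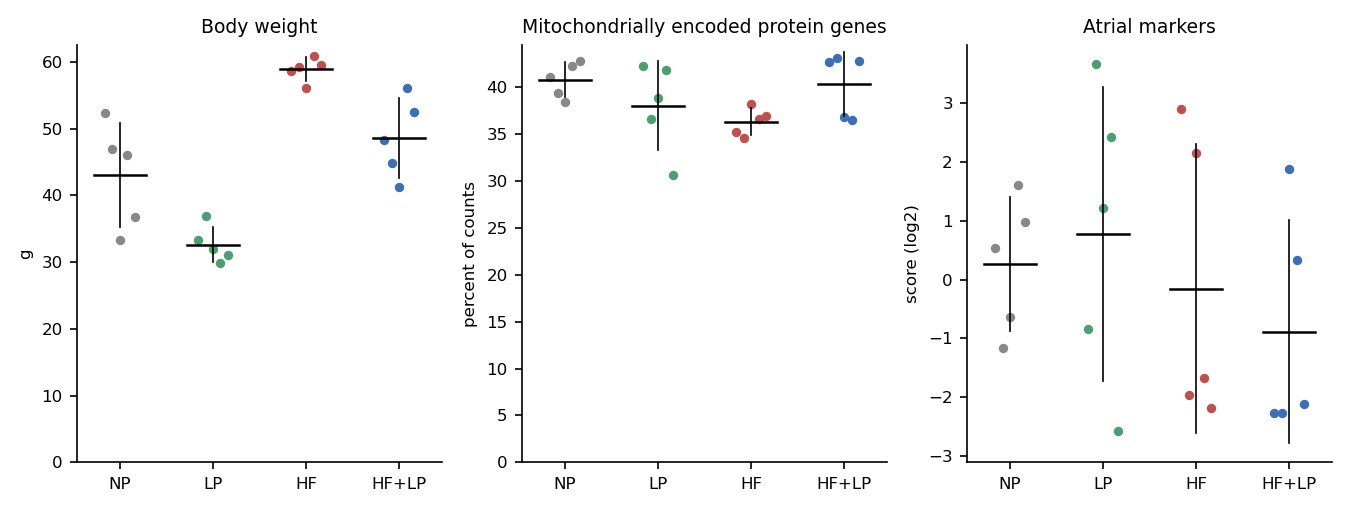
Body weight in g, the share of counts on mitochondrially encoded protein genes in percent, and the mean log2 level of atrial markers (y axes) in each mouse of the 4 diet groups (x axis), with the mean as a line and 1 SD as a bar. HF + LP mice weigh between 41.2 and 56.1 g against 56.1 to 60.9 g in HF, and 3 of them have a higher mitochondrial share than every HF mouse.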

How the data were processed

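RNA from left ventricular tissue of 20 mice, 5 per diet, was sequenced at the 3′ end with QuantSeq. The authors deposited a table of raw read counts per Ensembl gene, per the labels on GRCm38, with DESeq2 1.22.2 named in the submitters' processing notes. The methods of the study name BlueBee for alignment, while the counting program and strand setting are not given in the sources used here. Gene types and positions were taken from GENCODE M21.

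All 20 libraries were fitted together in edgeR 4.0.16 (R 4.3.3, limma 3.58.1) with TMM factors, the group-wise low-count filter and the quasi-likelihood test, and 13991 genes were tested. Calls needed an adjusted p (Benjamini-Hochberg) under 0.01 and a mean normalized count over 50. Scores are means over a list of log2 CPM (prior count 2), centred on the mean of each gene over the 20 mice. Single values were compared with exact permutation tests, whose smallest two-sided p with 5 against 5 mice is 0.00794. Alternatives were RLE size factors, DESeq2 1.42.0, other filters, fewer libraries, each mouse left out, and the animal number as a block.

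Genes were named by rule, as up to 12 per direction by p among genes whose groups did not overlap, up to 4 per list, and 5 for the interaction, with others marked in the text. The lists and the comparison were chosen with earlier results of these data known. Nothing ties the mice to litters or cages here, so p-values measure the spread between these mice. A few genes that the rule names are not reported here.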

Additional observations from a re-analysis of the deposited data

Results flagged for a closer look

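In groups of 5 mice, the highest or lowest value was marked where its gap to the next mouse took more than 0.71 of the range of the group (Dixon's criterion). Of 190 checks on the genes and scores named, 20 were marked, and chance marks about 1 in 20.

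HF + LP 3 held the highest value of its group for several genes of other tissues, with a gap ratio of 0.734 for Nppa, 0.860 for Myl7, 0.774 for Sln, 0.817 for Pck1, 0.792 for Adipoq, and 0.890 for the adipocyte marker score. HF 3 was the highest of HF for Pck1 (0.992), Adipoq (0.956), and the adipocyte marker score (0.826). HF 1 was the highest of HF for the hypertrophy score, with a ratio of 0.735, and also had the highest atrial marker score. The hypertrophy and atrial lists share 1 gene, so these scores are not independent.

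Among genes lower in HF + LP, HF 2 stood above the other HF mice for Cmklr1 (0.753), and HF + LP 4 below its group for Ltc4s (0.762). Among genes higher in HF + LP, HF + LP 5 stood above its group for Ano10 (0.783) and BC002189 (0.889), and HF + LP 4 for Cmss1 (0.768). HF 4 was the lowest of HF for Gm42972 (0.821) and HF 3 for C130089K02Rik (0.855). HF 2 was the highest of HF for Neat1, with a ratio of 0.854, and HF + LP 3 the lowest of its group for Pfkfb1, with 0.927. HF + LP 1 was the highest of its group for mt-Nd3, with 0.711.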

How the results depend on the processing

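Against 0 genes called in edgeR, DESeq2 called 16 with all libraries and 27 with the HF and HF + LP libraries alone, of which 4 and 5 lay outside the interferon-induced and heat-map lists. By edgeR 3 were called without the 4 libraries with atrial transcripts, and 0 to 1 with each mouse left out. The interaction had 1 call in DESeq2. The cause of these differences was not tested. With each mouse left out, 214 to 384 genes did not overlap (fewer mice overlap less by construction), and the counts at an unadjusted p under 0.05 ran from 39 to 87 for TEC transcripts, 10 to 17 for macrophage markers, 3 to 7 for hypertrophy genes, and 2 to 6 for PPAR-responsive genes. TEC transcripts numbered 39 with at least 10 counts in every library, where fewer were tested, and 34 without the 4 libraries, which left 1 hypertrophy gene and 2 PPAR-responsive genes. The mitochondrial share differed by 3.35 to 5.01 percentage points with each mouse left out and by 4.56 with all mitochondrially encoded genes.

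Mice with the same animal number did not deviate together (correlations −0.225, −0.118, 0.476, 0.230, and −0.553, with 1 of 5 closest to its own number), so the numbers were not taken as pairs. With the number as a replicate block, edgeR called 0 genes, 766 had an unadjusted p under 0.05, 24 macrophage markers were lower, and the weight difference of −10.32 g had an exact sign-flip p of 0.0625, which is also the lowest attainable. The block turned the log2 fold change of Nppa to 0.011, of Myl7 to 0.29, and of Sln to 0.47. With each mouse left out the log2 fold change ran from −2.97 to 0.32 for Nppa, −3.34 to 0.045 for Sln, −4.05 to 2.08 for Pck1, and −3.72 to 1.19 for Adipoq. Without the 4 libraries Pck1 was at 0.74 and Adipoq at 0.49. With 5 mice a group, differences under the median half-width of 0.33 on the log2 scale were mostly not detectable.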

Other observations

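The 21 clock genes had 0 past an unadjusted p of 0.05, with a median log2 fold change of 0.04. The 34 genes of ER folding and the unfolded protein response had 0, with a median of −0.07, and 26 of them were negative. Of 33 antioxidant genes 1 was lower, of 26 heat shock chaperones 1 was higher, and 75 mitochondrial ribosomal proteins had 0, with a median of 0.06. Without the 4 libraries with atrial transcripts the antioxidant genes had 0 past the threshold, and the heat shock chaperones had 0 higher and 1 lower. The median of the clock genes was then 0.18, and it ran from −0.07 to 0.11 with each mouse left out.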
